A study of Arabidopsis thaliana with 30 samples.

Results

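The 10 indole glucosinolate genes described here were chosen by name and Arabidopsis gene code, and all 10 were found among the 33199 features of the deposited table. They are the transcription factor genes MYB34 (AT5G60890), MYB51 (AT1G18570) and MYB122 (AT1G74080), the core enzyme genes CYP79B2 (AT4G39950), CYP79B3 (AT2G22330), CYP83B1 (AT4G31500), SUR1 (AT2G20610) and UGT74B1 (AT1G24100), and the side-chain genes CYP81F2 (AT5G57220) and IGMT1 (AT1G21100). Messenger RNA was sequenced in 30 libraries of Arabidopsis thaliana seedlings 7 days old, of the wild type Columbia (Col) and of ahp4-2 (ahp4), a mutant line of AHP4, which codes for a histidine phosphotransfer protein of cytokinin signalling. Seedlings were cut at the hypocotyl into a root and a shoot pool, and pools were given 100 nM of the synthetic cytokinin 6-benzylaminopurine (BA) for 2 h or DMSO alone (mock). All groups, mock included, spent those 2 h in liquid medium with 0.1% DMSO. The 8 groups were Col root mock, Col root BA, ahp4 root mock, ahp4 root BA, Col shoot mock and Col shoot BA with 4 libraries each, and ahp4 shoot mock and ahp4 shoot BA with 3 each. Each sample is a pool of an unstated number of seedlings, and the mutant is represented by 1 line.

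Indole glucosinolates are sulfur-rich defence compounds of the cabbage order that plant tissue stores and that myrosinases split when cells are wounded. CYP79B2 and CYP79B3 convert tryptophan to indole-3-acetaldoxime, CYP83B1 oxidises the aldoxime, and the product is joined to glutathione, trimmed, cleaved by the C-S lyase SUR1, given glucose by UGT74B1 and sulfated. CYP81F enzymes then hydroxylate the indole ring and IGMT enzymes methylate the new hydroxyl group. MYB34, MYB51 and MYB122 switch on the core genes, and in Arabidopsis MYB34 is known mainly for roots and MYB51 mainly for shoots. The aldoxime also feeds the synthesis of auxin and of the antifungal compound camalexin.

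The promoters of MYB34, MYB51, MYB122 and CYP81F2 are printed first because these were the members called in the comparisons of BA with mock within a genotype. Each stretch of 300 bases runs from 250 bases before to 50 bases after the annotated gene start, 5′ to 3′ on the strand of the gene, and was read from the RefSeq TAIR10.1 genome with its own annotation. All 4 genes lie on the plus strand, at chr5:24494041-24494340 for MYB34, chr1:6389149-6389448 for MYB51, chr1:27855328-27855627 for MYB122 and chr5:23187590-23187889 for CYP81F2. Capitals mark matches, on either strand, to the motifs CACGTG (G-box), TTGAC (core of the W-box), AGATCT (type-B motif 1) and AGATTC (type-B motif 2), both described for type-B response regulators, and 3 AC elements described for MYB factors, which are ACCTAAC (element 1), ACCTACC (element 2) and ACCAACC (element 3).
MYB34: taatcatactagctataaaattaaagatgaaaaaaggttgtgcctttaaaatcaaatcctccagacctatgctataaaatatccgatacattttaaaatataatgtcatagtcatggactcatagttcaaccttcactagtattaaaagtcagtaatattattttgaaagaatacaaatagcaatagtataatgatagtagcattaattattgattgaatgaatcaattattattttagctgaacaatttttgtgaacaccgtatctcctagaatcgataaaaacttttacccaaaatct
MYB51: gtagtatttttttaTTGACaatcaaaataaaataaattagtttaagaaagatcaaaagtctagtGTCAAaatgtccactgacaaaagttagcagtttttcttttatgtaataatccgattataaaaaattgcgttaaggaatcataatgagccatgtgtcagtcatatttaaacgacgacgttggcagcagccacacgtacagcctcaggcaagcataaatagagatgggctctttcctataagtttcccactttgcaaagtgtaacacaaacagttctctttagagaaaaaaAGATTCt
MYB122: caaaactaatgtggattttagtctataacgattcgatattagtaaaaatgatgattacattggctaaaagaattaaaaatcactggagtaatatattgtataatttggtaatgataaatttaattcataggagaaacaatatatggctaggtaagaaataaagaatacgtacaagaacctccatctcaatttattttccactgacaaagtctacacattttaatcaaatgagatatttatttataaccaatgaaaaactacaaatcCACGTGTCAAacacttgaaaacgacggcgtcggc
CYP81F2: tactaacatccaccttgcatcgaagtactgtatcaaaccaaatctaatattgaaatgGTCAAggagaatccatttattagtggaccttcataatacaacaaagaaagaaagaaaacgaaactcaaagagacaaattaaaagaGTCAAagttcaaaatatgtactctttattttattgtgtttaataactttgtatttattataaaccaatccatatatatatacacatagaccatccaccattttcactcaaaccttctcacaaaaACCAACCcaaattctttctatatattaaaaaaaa
The MYB34 stretch held none of the 7 motifs, and neither did those of CYP79B2 (chromosome 4) and CYP79B3 (chromosome 2). In MYB51 there was a TTGAC at -236 from the gene start, another on the reverse strand at -186, and an AGATTC at 44. In MYB122 a CACGTG at 17 overlapped a reverse TTGAC at 22 by its last base. CYP81F2 had reverse TTGAC matches at -193 and -108 and an ACCAACC at 17. Over all 10 members the W-box core was found in 6 promoters, AC element 3 in 3, the G-box in 2, each type-B motif and AC element 1 in 1, and AC element 2 in 0. Among 27443 promoters of the same length of protein-coding genes the shares were 50.5% for the W-box core, 3.29% for AC element 3, 7.68% for the G-box, 7.38% and 19.5% for type-B motifs 1 and 2, 2.88% for AC element 1 and 1.38% for AC element 2. These matches describe letters in the windows and nothing was tested on them. None of the 10 genes overlapped another gene in this annotation, so strand counting could not mix their reads with those of an overlapping annotated gene. Transcripts outside the annotation were not examined.

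Whole reads rebuilt from the deposited values summed to between 9205127 and 13779004 in a library, and each member except MYB122 had at least 25 reads in each library. Levels are given in FPKM, fragments per kilobase of gene, scaled for depth by the authors, which allows levels of different genes to be compared. Log2 changes are differences of log2(FPKM + 1) with their standard error, and a gene was called where limma gave a Benjamini-Hochberg adjusted p under 0.05 over all genes tested. The treatment could be seen in ARR5, an early cytokinin target, which lay between 12.04 and 36.5 FPKM in mock roots and between 140 and 203 in BA roots. AHP4 itself was lower on average in ahp4 in each organ and treatment. Its level was 0.376 of the Col mean in mock roots and 0.287 in mock shoots (p = 0.0286 and 0.0571 by a two-sided exact permutation test). In BA shoots the ratio was 0.239 (exact permutation p = 0.0286). In BA roots AHP4 rested on 6 reads in ahp4 and 19 in Col, and the libraries overlapped. The ratio there was 0.339, and the difference did not pass (exact permutation p = 0.257). One library of the ahp4 root mock group, replicate 1, carries the labels Col-0 and BA in one field and ahp4 and mock in its title. Its ARR5 level was 21.4 FPKM and its AHP4 level 0.350 FPKM, both within the range of the other libraries of its group or of its title's treatment, and calls of BA against mock in roots that change without it are given where they are described. The summed level of 10 shoot markers in root libraries was 0.137% to 0.712% of the shoot mean, and that of 9 root markers in shoot libraries at most 0.996% of the root mean. Within roots the summed root markers were higher with BA, at 461 to 599 FPKM in Col mock and 656 to 815 in Col BA, without overlap, and at 533 to 910 and 725 to 970 in ahp4, with overlap. By limma THAS and MRN1 were called higher and NRT2.1 lower of 9 in both genotypes, and IRT1 higher in ahp4, and their part in the BA results in roots was not tested. In pooled tissue fewer cells of a type and less RNA per cell cannot be told apart.

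In mock-treated Col roots CYP83B1, CYP79B3 and CYP79B2, the first enzymes of the core, were the most abundant members, and MYB51, CYP81F2 and MYB122 the least. CYP83B1 led with 367 ± 99.3 FPKM (SD, n = 4), followed by CYP79B3 with 180 ± 30.1, CYP79B2 with 158 ± 47.1, IGMT1 with 92.6 ± 17.1, SUR1 with 75.8 ± 18.003 and UGT74B1 with 62.7 ± 17.8. MYB34 stood at 42.1 ± 7.25, well above MYB51 at 8.54 ± 0.996, CYP81F2 at 6.61 ± 1.17 and MYB122 at 2.89 ± 0.883. Of neighbours in this order, CYP83B1 and CYP79B3, MYB34 and MYB51, and CYP81F2 and MYB122 did not overlap between libraries, and all other neighbours did. In mock-treated Col shoots the order was different, with CYP83B1 at 57.3 ± 20.5, SUR1 at 49.6 ± 9.42, CYP79B3 at 41.2 ± 11.1, UGT74B1 at 25.7 ± 6.75 and CYP79B2 at 15.5 ± 6.89 FPKM. There MYB51 at 11.6 ± 6.25 and CYP81F2 at 9.36 ± 2.61 exceeded IGMT1 at 7.11 ± 1.87 and MYB34 at 3.99 ± 1.299, and MYB122 was at 0.0160 ± 0.0320 FPKM.

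**Figure D1:**
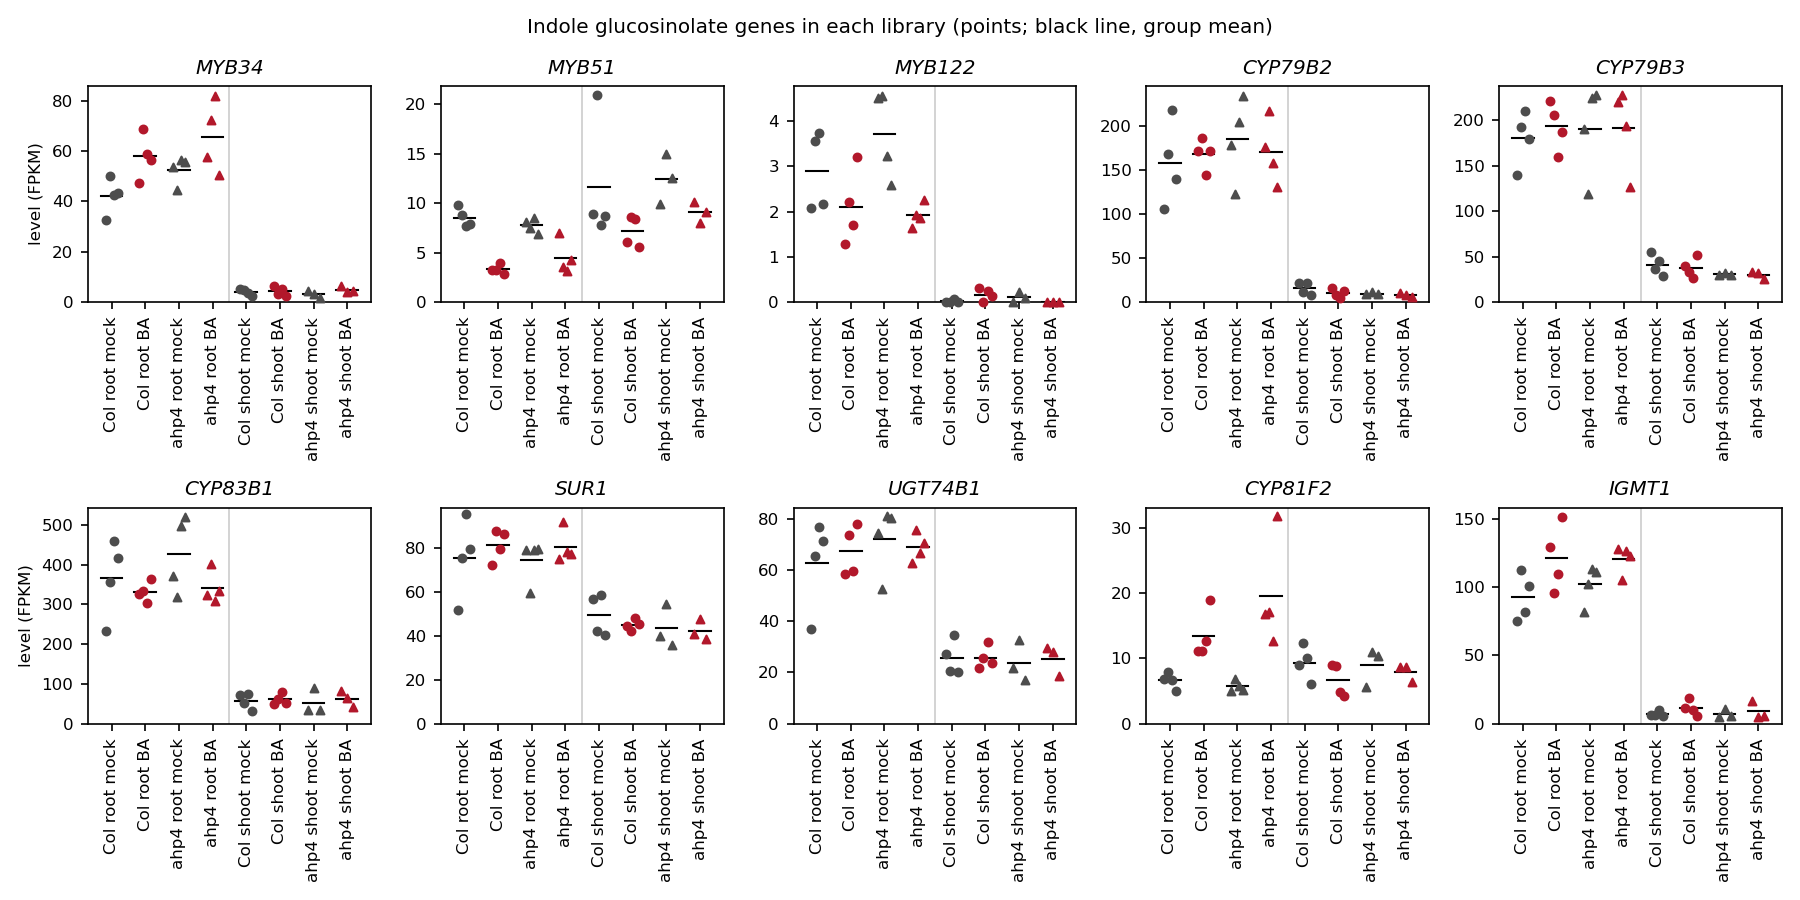
Level of each of the 10 genes in FPKM (vertical axis, linear, from 0, with its own range in each panel) in each library, by group (roots left, shoots right; grey, mock; red, BA; circles, Col; triangles, ahp4; black lines, group means). MYB34, CYP79B2 and IGMT1 are near the floor of their panels in shoots, while the mock libraries of MYB51 and CYP81F2 overlap between the organs of Col.

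Most of the pathway was expressed more strongly in roots than in shoots. In mock-treated Col 8 of the 10 members were higher in roots and none was lower. MYB122, counted among the 8, passed the filter (at least 1 FPKM in at least 3 libraries) through its root libraries alone. Its highest shoot level was 0.301 FPKM, in Col BA, so it could only be called in that direction. Of 20818 genes tested 71.3% were called in either direction, 7980 as higher in roots and 6853 as lower. The members' median root minus shoot difference was 2.02 on the log2 scale, against 0.07 over all genes tested. The organ comparison treats root and shoot pools as independent, although they may come from the same seedlings.

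IGMT1, whose product methylates hydroxylated indole glucosinolates, had the largest difference of the 10 on the log2(FPKM + 1) scale, 3.54 ± 0.29 (limma adjusted p = 1.05e-11). Its root libraries held 75.4, 112, 81.5 and 101 FPKM and its shoot libraries 6.48, 6.23, 9.89 and 5.86. CYP79B2, which makes the aldoxime, differed by 3.33 ± 0.29 (limma adjusted p = 4.49e-11). The 4 root libraries had 106, 168, 218 and 140 FPKM and the 4 shoot libraries 21.4, 11.1, 21.4 and 8.14. Its paralog CYP79B3, 80.6% identical in coding sequence, differed less, by 2.12 ± 0.22 (limma adjusted p = 1.05e-09), with 4.37 times the shoot mean in roots where CYP79B2 had 10.2 times. The difference between the paralogs was not tested. CYP83B1 was higher in roots by 2.69 ± 0.28, UGT74B1 by 1.23 ± 0.21 and SUR1 by 0.59 ± 0.15 (limma adjusted p = 1.65e-09, 8.9e-06 and 0.001). SUR1 was the called member whose libraries overlapped, with 52.1 FPKM in the lowest root library and 58.6 in the highest shoot library.

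The 3 factors were split. MYB34 was higher in roots by 3.13 ± 0.23 (limma adjusted p = 9.32e-13), from 32.4, 49.99, 42.6 and 43.2 FPKM in roots to 5.31, 4.71, 3.54 and 2.38 in shoots. MYB122 was detected in each root library and hardly at all in shoots. In mock Col it rested on 241 rebuilt reads in roots and 1 in shoots, a ratio of 157 after scaling (exact 95% interval 27.8 to 6211, which covers counting error only). Its fitted difference was 1.91 with a pseudocount of 1 and 4.67 with 0.1, so the ratio of reads is the better measure of its size. Over all 14 shoot libraries MYB122 had between 0 and 4 reads in a library, and the 3 ahp4 shoot BA libraries had none. MYB51 did not pass the test (-0.30 ± 0.21, limma adjusted p = 0.216, 95% interval -0.73 to 0.14), with 9.82, 8.82, 7.65 and 7.85 FPKM in roots and 8.90, 20.9, 7.83 and 8.66 in shoots. In mock Col the 2 organs overlap in this gene, and 1 shoot library stands far above the other 3. In mock ahp4 all shoot libraries exceeded all root libraries (means of 12.4 and 7.75 FPKM), as they did with BA in both genotypes. These differences were not tested. CYP81F2, a monooxygenase known for its part in defence against fungi, was not called in mock Col either (-0.42 ± 0.25, limma adjusted p = 0.134, interval -0.93 to 0.09). Without Col shoot mock replicate 4 it was called as lower in roots (-0.59, limma adjusted p = 0.0465). The scale matters here, since scaling by read totals moved the median of all genes from 0.07 to 0.53 and with it MYB51 to 0.21 and CYP81F2 to 0.07, both still uncalled, while the other 8 members stayed higher in roots by 1.13 to 4.05.

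As shares of the summed FPKM of the 3 factors, MYB34 made up 73.1% to 81.2% in mock Col roots and 18.4% to 37.4% in mock Col shoots, and MYB51 made up 14.1% to 22.2% and 62.6% to 81.6%. MYB34 exceeded MYB51 in each of the 16 root libraries. In shoots MYB51 exceeded MYB34 in 13 of 14 libraries, the exception being Col shoot BA replicate 1 with a MYB34 to MYB51 ratio of 1.06. That library also had 3.23 FPKM of CYP81F3, another gene of the pathway, where the others of its group had 0.251 to 0.402. The summed root markers reached 6.88 FPKM in a library of that group, the highest of any shoot group. Their part in the ratio was not tested. In ahp4 the mock shares were similar, with 78.6% to 85.4% MYB34 in roots and 69.5% to 87.1% MYB51 in shoots.

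**Figure D2:**
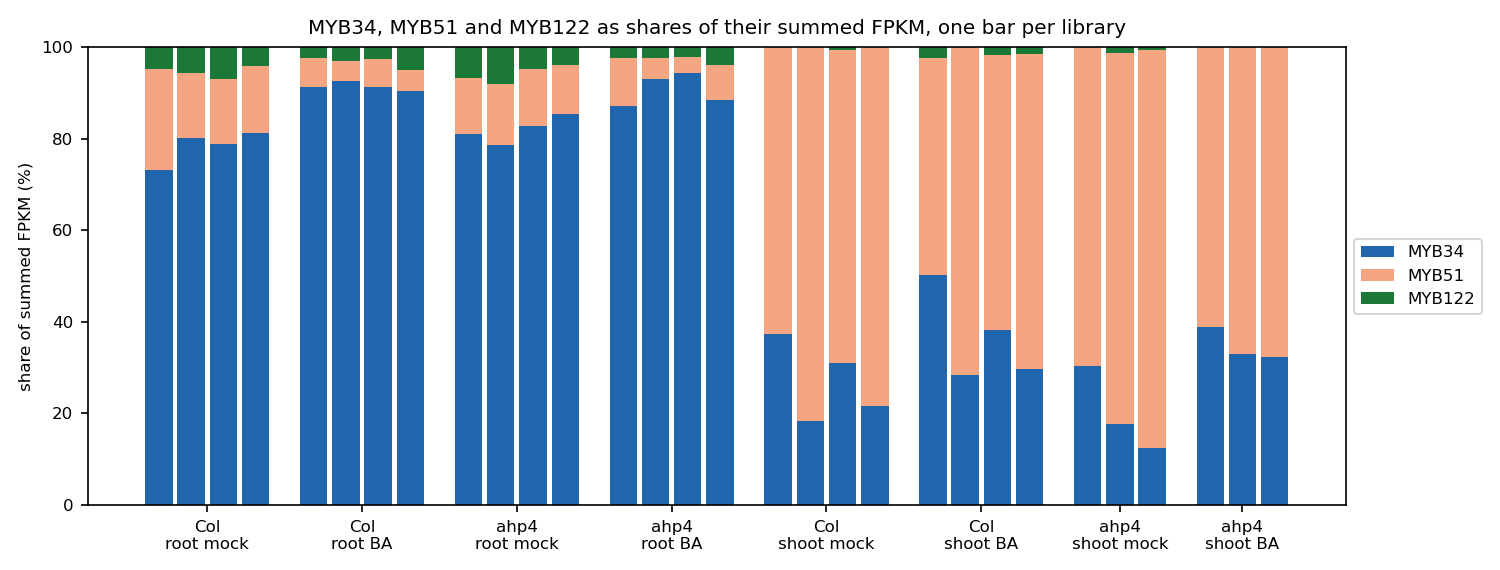
Share of MYB34 (blue), MYB51 (orange) and MYB122 (green) in their summed FPKM (vertical axis, percent), with 1 bar per library, by group. In Col roots MYB34 goes from 73.1% to 81.2% under mock to 90.3% to 92.7% under BA, and in mock shoots MYB51 holds the larger share.

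The other genes of the pathway followed the members across organs. Of 11 further core and side-chain genes 10 were tested, 9 were higher in roots and IGMT4 was lower. CYP81F3, counted as higher, would not have passed the filter on its shoot libraries, as with MYB122. The 4 with the smallest p were IGMT5, CYP81F4, GSTF9 and IGMT3. IGMT5, whose product methylates a hydroxyl group on the ring nitrogen, had 259 against 5.53 FPKM (5.35 ± 0.34, limma adjusted p = 5.95e-14). CYP81F4 had 32.7 against 0.504 FPKM (4.52 ± 0.30, limma adjusted p = 1.54e-13). GSTF9, a glutathione transferase, had 1253 against 389 FPKM, and IGMT3 had 49.997 against 2.69 FPKM. CYP81F1 was listed at 0 in each library, and whether it was absent or not counted cannot be told from the values. IGMT4, named because it was the 1 gene that went the other way, had 11.6 FPKM in roots and 143 in shoots (-3.57 ± 0.36, limma adjusted p = 1.14e-09). The coding sequences of IGMT1 to IGMT4 are 92.5% to 97.4% identical over their aligned parts, so reads may be split between them and each single value is uncertain. Their sum was 172 ± 28.6 FPKM in roots and 156 ± 34.8 in shoots, and the libraries of both organs overlapped in this sum, unlike in IGMT1.

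**Figure D3:**
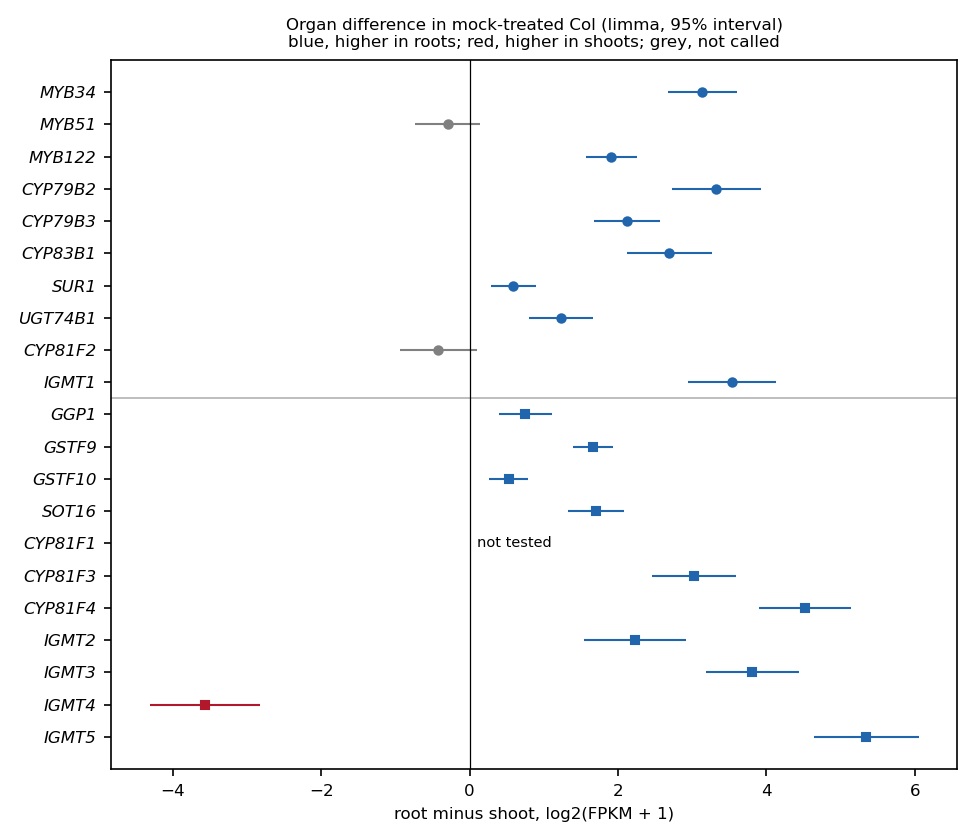
Root minus shoot difference in mock-treated Col on the log2(FPKM + 1) scale (horizontal axis) for the 10 members (circles, above the line) and 11 further genes of the pathway (squares), with 95% intervals from limma (blue, higher in roots; red, higher in shoots; grey, not called). IGMT5 is farthest to the right at 5.35, IGMT4 alone is called to the left, and MYB51 and CYP81F2 span 0.

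In Col roots 2 h of BA raised CYP81F2 and MYB34 and lowered MYB51, and the other 7 members did not pass the test. The call rate over all genes was 20.5% of 19418 genes tested, near the 3 of 10 among the members. The members' median log2 change was 0.13, against -0.00 over all genes.

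MYB51 had 9.82, 8.82, 7.65 and 7.85 FPKM in mock libraries and 3.23, 3.21, 3.95 and 2.85 with BA. All BA libraries lay below all mock libraries. The mean fell from 8.54 ± 0.996 to 3.31 ± 0.459 FPKM (SD, n = 4 each), a log2 change of -1.15 ± 0.16 (limma adjusted p = 8.18e-05). CYP81F2 had 6.87, 7.86, 6.69 and 5.04 FPKM under mock and 11.1, 11.1, 12.7 and 18.9 with BA. The groups did not overlap, and the mean rose from 6.61 ± 1.17 to 13.5 ± 3.71 FPKM (0.91 ± 0.22, limma adjusted p = 0.00666). MYB34 had 32.4, 49.99, 42.6 and 43.2 FPKM under mock and 47.3, 68.7, 58.7 and 56.6 with BA. Its groups overlapped, and its rise of 0.45 ± 0.15 passed narrowly (limma adjusted p = 0.0466). This call ended without mock replicate 1, 3 or 4 (limma adjusted p = 0.141, 0.0804 and 0.0656), without BA replicate 2, 3 or 4 (0.143, 0.0896 and 0.0816), and under no filter on low values, quantile normalization, scaling by read totals and 1 fit of all 8 groups (0.0696, 0.0868, 0.0627 and 0.181).

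MYB122 went from 2.09, 3.56, 3.74 and 2.16 FPKM to 1.29, 2.22, 1.71 and 3.21, and the change was not called (-0.33 ± 0.20, limma adjusted p = 0.257). IGMT1, with 75.4, 112, 81.5 and 101 FPKM under mock and 129, 95.9, 109 and 151 with BA, missed the threshold (0.38 ± 0.15, limma adjusted p = 0.0778) but passed it without replicate 2 of the mock or of the BA group (0.0377 and 0.0369). The 5 core enzymes had log2 changes between -0.10 and 0.15, none called (limma adjusted p from 0.56 to 0.762). Their 95% intervals reached from -0.49 to 0.58. CYP79B2, for example, had 106, 168, 218 and 140 FPKM under mock and 171, 186, 144 and 172 with BA.

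In ahp4 roots BA again raised CYP81F2 and lowered MYB51, and MYB122 was called lower as well, so 3 of 10 members were called where the rate over all genes was 20.7%. CYP81F2 had 4.96, 6.88, 5.80 and 5.21 FPKM under mock and 16.9, 17.2, 12.7 and 31.7 with BA. All BA libraries exceeded all mock libraries, and replicate 4 stood above the other 3. The log2 change was 1.55 ± 0.22 (limma adjusted p = 8.62e-05), and 1.301 without that replicate (limma adjusted p = 9.89e-05). MYB51 had 8.08, 7.50, 8.49 and 6.92 FPKM under mock and 6.94, 3.57, 3.13 and 4.30 with BA (-0.72 ± 0.16, limma adjusted p = 0.00378). BA replicate 1 overlapped the mock range and the other 3 were below it. MYB122 had 4.51, 4.55, 3.23 and 2.58 FPKM under mock and 1.65, 1.93, 1.87 and 2.25 with BA, without overlap (-0.67 ± 0.20, limma adjusted p = 0.0228). Its call ended without mock replicate 1, the library with conflicting labels (limma adjusted p = 0.0729), without mock replicate 2 (0.061) and without BA replicate 1 (0.0583). MYB34, with 53.8, 44.4, 56.3 and 55.6 FPKM under mock and 57.7, 72.2, 81.8 and 50.2 with BA, was not called (0.29 ± 0.15, limma adjusted p = 0.197), nor was IGMT1 (0.25 ± 0.15, 0.267). The core enzymes changed by -0.29 to 0.12, none called.

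**Figure D4:**
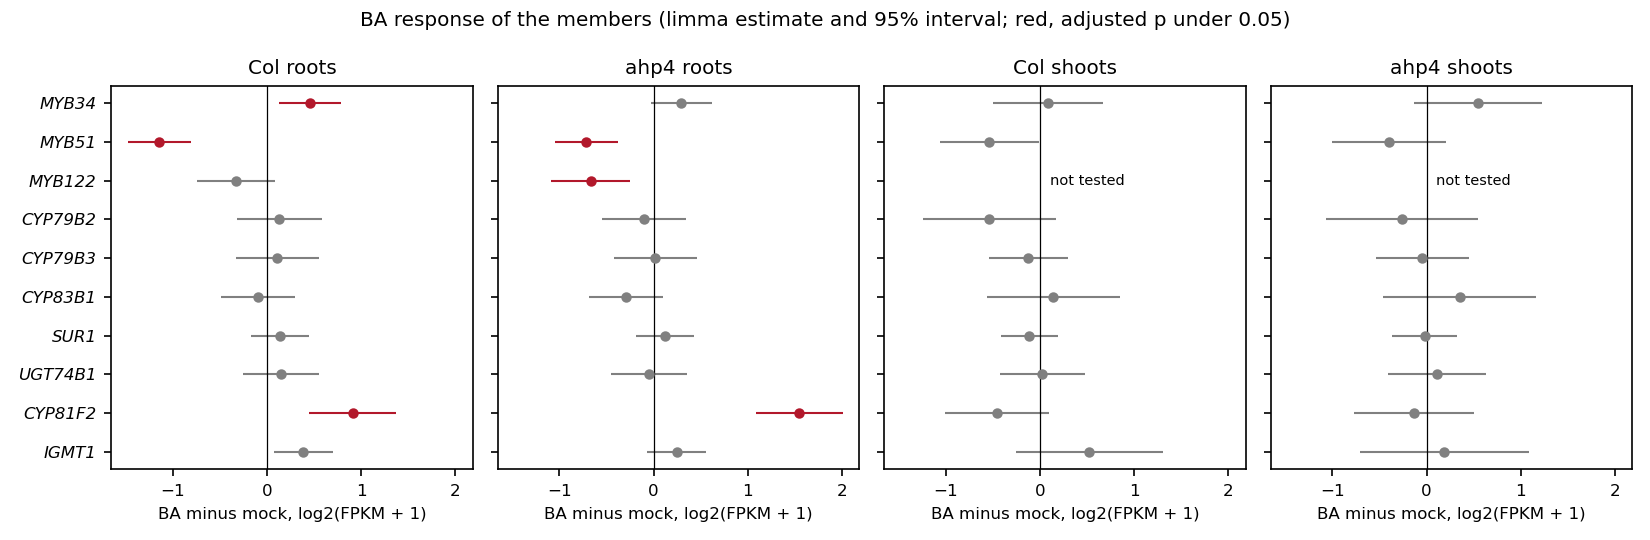
BA minus mock on the log2(FPKM + 1) scale (horizontal axis) for the 10 members in the 4 combinations of genotype and organ, with 95% intervals from limma (red, adjusted p under 0.05; grey, not called). MYB51 lies left of 0 and CYP81F2 right of 0 in both root panels, the 5 core enzymes straddle 0 in each panel, and no member is called in shoots.

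Averaged over both genotypes, a comparison added after the data had been seen, 5 members were called in roots, where 36.3% of all genes were. CYP81F2 rose by 1.23 ± 0.15 (limma adjusted p = 9.81e-06), MYB34 by 0.37 ± 0.11 (0.0128) and IGMT1 by 0.32 ± 0.10 (0.0266), while MYB51 (-0.93 ± 0.11, 6.72e-06) and MYB122 (-0.50 ± 0.14, 0.00983) fell. The IGMT1 call ended without Col mock replicate 1 or 3, Col BA replicate 4 or ahp4 mock replicate 1 (limma adjusted p = 0.0558, 0.0563, 0.0582 and 0.0591), and in 1 fit of all 8 groups those of IGMT1 and MYB34 ended (0.251 and 0.0764). CYP83B1, at -0.20 ± 0.13, was not called (limma adjusted p = 0.261), but was without Col mock replicate 1 (-0.298, limma adjusted p = 0.0389). The remaining 4 core enzymes changed by 0.01 to 0.13 and were not called.

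The balance of the factors lay further towards MYB34 in BA roots than in mock roots. The MYB34 share of the summed FPKM of the 3 genes was 90.3% to 92.7% in Col BA roots, above each mock library, and the ratio of MYB34 to MYB51 was 14.6 to 21.4 with BA against 3.30 to 5.67 under mock. In ahp4 roots the ratio was 5.92 to 8.04 under mock and 8.32 to 26.1 with BA.

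CYP81F4 and CYP81F3, the other CYP81F genes listed above 0, rose in roots with BA as CYP81F2 did. CYP81F4 had 26.3, 37.6, 34.8 and 31.98 FPKM in mock Col roots and 68.6, 73.4, 74.6 and 73.4 with BA (1.14 ± 0.11, limma adjusted p = 1.72e-06). In ahp4 it rose by 1.21 ± 0.11 (7.34e-07 by limma). CYP81F3 rose from 13.3 to 23.9999 FPKM in Col (0.82 ± 0.17, limma adjusted p = 0.00291) and from 10.7 to 19.99 in ahp4 (0.84 ± 0.17, 0.00238). The sum of the family went from 52.6 ± 8.39 to 110 ± 9.68 FPKM in Col roots and from 49.5 ± 3.89 to 117 ± 13.9 in ahp4 roots, and most of it was CYP81F4. The coding sequences of CYP81F2, CYP81F3 and CYP81F4 are 70.2% to 81.7% identical, less than those of IGMT1 to IGMT4. Among the methyltransferases IGMT2 rose in ahp4 roots (15.8 to 33.1 FPKM, 0.98 ± 0.21, limma adjusted p = 0.00288), and the sum of IGMT1 to IGMT4 went from 172 ± 28.6 to 219 ± 36.2 FPKM in Col and from 187 ± 20.9 to 254 ± 42.9 in ahp4, with overlap in each genotype. GSTF10, a glutathione transferase of the core pathway, fell in both (-0.54 ± 0.10 and -0.56 ± 0.10, limma adjusted p = 0.000853 and 0.000556). In all, of 10 further pathway genes tested 2 rose and 1 fell in Col roots and 3 rose and 1 fell in ahp4 roots. The rates over all genes were 20.5% and 20.7%.

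**Figure D5:**
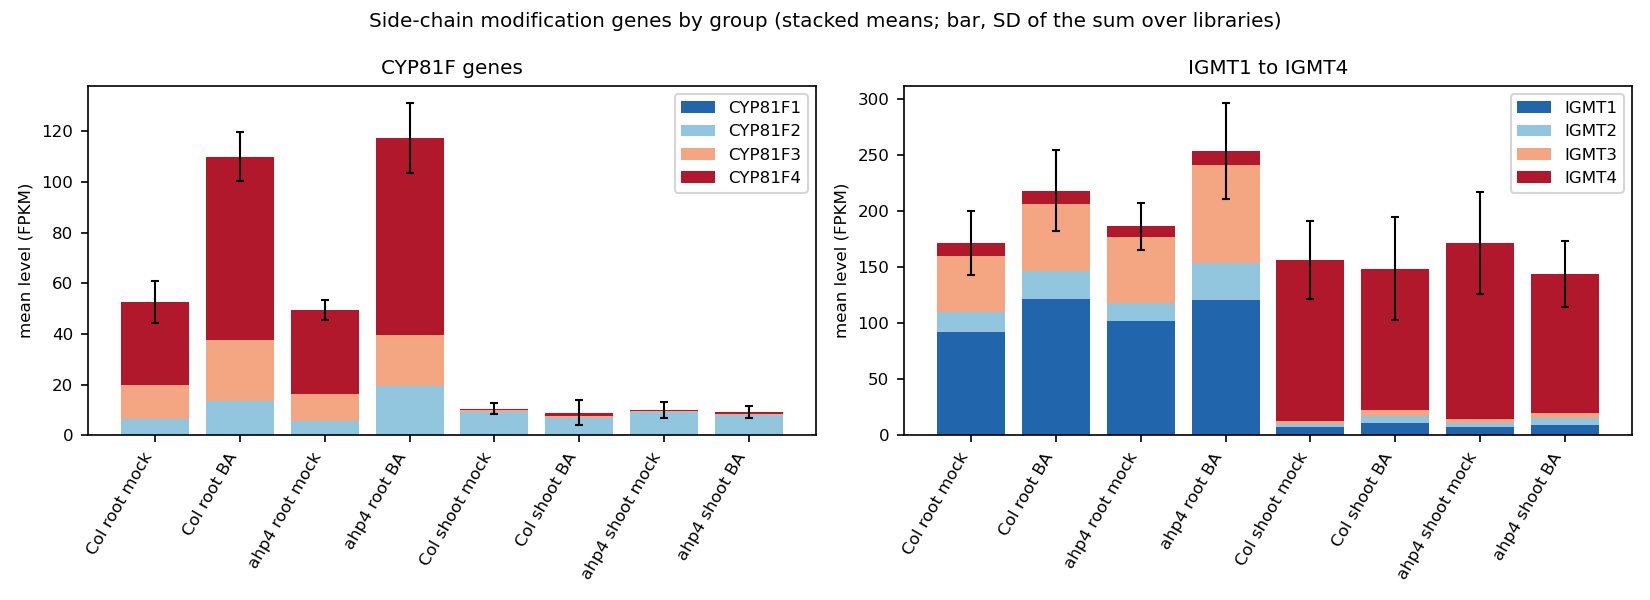
Mean FPKM (vertical axis, from 0) of the CYP81F genes (left) and of IGMT1 to IGMT4 (right) stacked by group, with bars for the SD of the sum over libraries. The CYP81F sum goes from 52.6 to 110 FPKM with BA in Col roots and stays near 10 in shoots, where most of it is CYP81F2, and IGMT4 makes up most of the IGMT sum in shoots.

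CYP81F2 and MYB51 are also known to respond to defence signals, and 11 genes of wounding, touch and defence were read beside them. The call rates over all genes were 20.5% in Col roots and 20.7% in ahp4 roots. In Col roots TCH4 rose (0.80 ± 0.20, limma adjusted p = 0.009) and WRKY53 fell (-0.84 ± 0.21, 0.00838) of 10 tested, and in ahp4 roots TCH4 (1.08 ± 0.20, 0.00104), TCH3 (0.58 ± 0.15, 0.0103) and WRKY33 (0.65 ± 0.22, 0.0445) rose. Without ahp4 root mock replicate 1 TCH2 was also called lower in Col roots (-0.43 ± 0.14, limma adjusted p = 0.044). The summed level of the list was 136 to 171 FPKM in Col mock roots and 139 to 166 in Col BA roots, and 126 to 161 and 128 to 254 in ahp4. The highest sum came from ahp4 root BA replicate 1, which had 59.9 FPKM of WRKY33 and also the highest MYB51 level of its group. The highest CYP81F2 level was in replicate 4, with a WRKY33 level of 33.3. LOX2 was at or near 0 in roots. The part of these genes in the results was not tested. At the highest share of shoot markers found in a root library, the highest shoot level would add 0.149 FPKM of MYB51 and 0.0880 FPKM of CYP81F2 to a root library. In the other direction the highest root level was taken at the highest share of root markers in a shoot library. It would add 0.814 FPKM of MYB34, 2.33 of CYP79B2 and 1.505 of IGMT1 to a shoot library. The lowest shoot levels of these genes were 1.78 FPKM (ahp4 mock), 5.12 (Col BA) and 4.92 (ahp4 mock). The part of such carry-over in the shoot levels was not tested.

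In shoots no member was called in either genotype. In Col, 0 of 9 members passed by limma, with 1 at an unadjusted p under 0.05 and 0 by limma voom on rebuilt reads, where 8.15% of 18246 genes were called. Over all genes 4259 of 18246 had an unadjusted p under 0.05 by limma in Col shoots. In ahp4 shoots the counts were 0, 0 and 0, and the rate of calls over all genes was 3.92%. MYB122 was too low to be tested. MYB51 had 8.90, 20.9, 7.83 and 8.66 FPKM in mock Col shoots and 6.06, 8.62, 8.36 and 5.53 with BA (-0.54 ± 0.24, limma adjusted p = 0.201, interval -1.06 to -0.02). In ahp4 shoots it had 9.88, 14.9 and 12.5 under mock and 10.1, 8.01 and 9.09 with BA (-0.40 ± 0.28, 0.495). The groups overlapped in both genotypes. CYP81F2 had 8.98, 12.4, 9.999 and 6.08 FPKM in mock Col shoots and 8.92, 8.83, 4.85 and 4.16 with BA (-0.45 ± 0.26, limma adjusted p = 0.314), and in ahp4 shoots 5.67, 11.03 and 10.4 and then 8.68, 8.74 and 6.34 (-0.14 ± 0.30, 0.854). MYB34 stayed between 1.78 and 6.46 FPKM over all shoot libraries. Averaged over both genotypes 0 of 9 members were called by limma (1 at an unadjusted p under 0.05, which was MYB51 at -0.47 ± 0.19 with limma adjusted p = 0.0988, and 0 by limma voom), where 17.3% of all genes were called. Over all genes 5784 of 18246 had an unadjusted p under 0.05 by limma in this average. In 1 fit of all 8 groups MYB51 was called for the average (limma adjusted p = 0.0403). Of 9 further pathway genes tested in shoots, GSTF9 fell in both genotypes (-0.46 ± 0.11 in Col and -0.54 ± 0.13 in ahp4, limma adjusted p = 0.0188 and 0.0286) and GSTF10 in ahp4 (-0.71 ± 0.18, 0.0376), and none rose.

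CYP81F2 was the member whose response to BA differed between the organs of Col, by 1.36 ± 0.35 on the log2 scale (limma adjusted p = 0.0124, 95% interval 0.64 to 2.09), where 11.6% of all genes were called. It changed by 0.91 in roots and by -0.45 in shoots. Under mock the root mean was 0.707 of the shoot mean, with overlap, and with BA it was 2.01 times the shoot mean, with 11.1 FPKM in the lowest root library and 8.92 in the highest shoot library. In ahp4 the corresponding ratios were 0.632 and 2.48. For MYB51 the difference between organs was not called (-0.61 ± 0.30, limma adjusted p = 0.213), but it was called without Col shoot mock replicate 2 (-0.91, 0.0125), the library with 20.9 FPKM. With BA all Col shoot libraries had more MYB51 than all Col root libraries, at 0.464 of the shoot mean in roots. The other 8 members had differences between -0.53 and 0.67, none called. MYB122 had 1 rebuilt read in Col mock shoots and 9 in Col BA shoots. Its difference ranged from -2.14 to -0.39 over the alternatives, so its size is not known.

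No member was called between ahp4 and Col. In mock roots 0 of 10 members were called by limma (0 at an unadjusted p under 0.05 and 0 by limma voom), where 0.0875% of all genes were called. In BA roots the counts were 0, 1 and 0, with 0.0257% over all genes, the 1 being CYP81F2 (19.6 ± 8.34 FPKM in ahp4 and 13.5 ± 3.71 in Col, 0.46 ± 0.22, limma adjusted p = 1). Over all genes 765 of 19418 had an unadjusted p under 0.05 by limma in BA roots. In mock shoots and in BA shoots the counts were 0, 0 and 0 of 9 tested, with 0.00548% of all genes called in each. MYB34 was the member nearest to a difference in mock roots, with 52.5 ± 5.53 FPKM in ahp4 and 42.1 ± 7.25 in Col (0.32 ± 0.15, limma adjusted p = 0.556, interval -0.00 to 0.65). The libraries of both genotypes overlapped in each member in all 4 comparisons. In roots the 95% intervals of the 10 members lay within -0.63 and 0.92 on the log2 scale, and in shoots those of the 9 tested within -1.29 and 0.89.

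No member was called for a difference between genotypes in its BA response. In roots 0 members were called by limma (0 at an unadjusted p under 0.05 and 0 by limma voom) and 0% of all genes, with 526 genes at an unadjusted p under 0.05. CYP81F2 had the largest difference, 0.64 ± 0.31 more in ahp4 (limma adjusted p = 1, interval -0.01 to 1.29), followed by MYB51 with 0.43 ± 0.22 (interval -0.05 to 0.90). In shoots the counts were 0, 0 and 0 among 9 members and 0% of all genes, with 336 genes at an unadjusted p under 0.05. Here the largest difference was that of MYB34, 0.46 ± 0.42 (interval -0.43 to 1.36).

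Genes around the pathway were read for the same comparisons. Over all genes BA called 20.5% in Col roots, 20.7% in ahp4 roots, 8.15% in Col shoots and 3.92% in ahp4 shoots. Of 9 genes of tryptophan synthesis 0 were called in Col roots with BA and TSA1 fell in ahp4 roots (-0.47 ± 0.15, limma adjusted p = 0.0371), while PAT1 fell in Col shoots (-0.31 ± 0.09, 0.0484). In sulfate activation APK1 rose in Col roots (0.49 ± 0.16, limma adjusted p = 0.0359) and APS1 fell in ahp4 roots (-0.44 ± 0.12, 0.012), each 1 of 4. MYC3, a partner of the MYB factors, rose in both (0.43 ± 0.10 and 0.31 ± 0.10, limma adjusted p = 0.00443 and 0.0295), the 1 call among 4 tested partner regulators. MYC2 was among the 6306 features listed at 0 in each library, and whether it was absent or not counted cannot be told from the values. In the camalexin branch CYP71A12 rose in Col roots from 6.21 to 20.4 FPKM (1.55 ± 0.22, limma adjusted p = 8.83e-05) and in ahp4 roots from 8.80 to 21.2 (1.13 ± 0.22, 0.00126), while PAD3, for the last step to camalexin, fell in both (-0.75 ± 0.16 and -0.74 ± 0.16, 0.00274 and 0.0029). These were both of the branch genes tested, and CYP71A13 was too low. In shoots CYP71A12, the 1 branch gene tested, was called higher in ahp4 at low levels (0.352 to 1.49 FPKM, 0.91 ± 0.23, limma adjusted p = 0.0369) but not in Col (0.13 ± 0.20, 0.74), and the average over both genotypes was called (0.52 ± 0.15, 0.0277). Among 13 tested genes of breakdown and transport the nitrilase genes NIT3 (0.72 ± 0.11 in Col and 0.74 ± 0.11 in ahp4) and NIT1 (0.37 ± 0.12 and 0.39 ± 0.12) rose in roots of both genotypes and the myrosinase gene TGG5 fell (-0.52 ± 0.15 and -0.43 ± 0.15), while BGLU21 (-0.37 ± 0.08) and TGG4 (-0.50 ± 0.13) fell in Col. Without ahp4 root mock replicate 1, the library with conflicting labels, the calls in ahp4 roots of TSA1, MYC3, TGG5 and NIT1 ended (limma adjusted p = 0.0691, 0.0874, 0.0529 and 0.0692). No gene of these lists, CYP71A12 included, was called for a difference between genotypes in its BA response in either organ.

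Genes of the sister pathway, aliphatic glucosinolate synthesis from methionine, were read as a second list. Of 11 tested in roots 2 fell in Col and 6 in ahp4, and none rose. Over all genes 20.5% were called in Col roots and 20.7% in ahp4 roots, so the Col count was near the general rate. The median log2 change of the list was -0.41 in Col and -0.82 in ahp4, where the indole members had 0.13 and -0.01. For a difference between genotypes in the BA response of roots 0 of these 11 genes were called. MYB28, their main regulator, fell in Col roots (-2.22 ± 0.18, limma adjusted p = 5.24e-07) and in ahp4 roots (-2.27 ± 0.18, 3.7e-07), and MAM3, a chain elongation gene, fell as well (-0.70 ± 0.20 and -0.99 ± 0.20, 0.021 and 0.00201). BAT5, a transporter gene, and MAM1 fell in ahp4 roots (-1.11 ± 0.25 and -0.87 ± 0.21, limma adjusted p = 0.00486 and 0.00744). Without ahp4 root mock replicate 1 the calls of CYP83A1 and UGT74C1 in ahp4 roots ended (limma adjusted p = 0.0654 and 0.0693), and BAT5 was called lower in Col roots as well (-0.72 ± 0.23, 0.0384). In Col shoots MYB28 and MYB29 fell (-1.27 ± 0.23 and -0.82 ± 0.18, limma adjusted p = 0.00372 and 0.0119), and in ahp4 shoots limma called 0 of 13. The difference between the lists was not tested. Across organs the aliphatic list was balanced, with 5 genes higher and 5 lower in mock Col roots of 13 tested, where 71.3% of all genes were called.

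By the pattern over the 8 group means, centred on their own mean, the members most like each other were MYB34 and IGMT1 (root mean square difference 0.178 on the log2 scale) and CYP79B3 and CYP83B1 (0.227). Over all genes with a symbol, those most like MYB34 were NAC038 (0.138) and RHS14 (0.145), those most like MYB51 were MEK1 (0.155) and PES2 (0.156), and those most like MYB122 were MYB40 (0.0748) and LAF1 (0.0884). CYP81F2 had no closer gene than KUP11 (0.168) and CXE12 (0.171). For the core enzymes the nearest genes were WRKY14 and KOR2 (0.132 and 0.145, CYP79B2), WAVH1 and TPR14 (0.114 and 0.120, CYP79B3), ABCA8 and MYB86 (0.112 and 0.115, CYP83B1), OBF5 and LOH2 (0.0349 and 0.0385, SUR1) and MYB69 and PSAT (0.0630 and 0.0690, UGT74B1). IGMT1 was nearest to ASL1 and AMT1;2 (0.101 and 0.110). The likeness rests on 8 points and was not tested.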

How the data were processed

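Polyadenylated RNA of 30 pooled root or shoot samples was sequenced. The authors deposited 1 table of FPKM values per gene, on TAIR10 per the submitters' processing notes, while the aligner and counter were not given in the sources used here. In the deposited FPKM values each feature is a whole number of reads (tolerance 0.01 reads, 100% of 33199 features), and 6306 features are listed at 0 in each library. Samples were grouped by their titles.

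Genes with an FPKM of at least 1 in at least 3 libraries were tested on log2(FPKM + 1) with limma 3.58.1 (mean-variance trend, R 4.3.3), the 4 groups of an organ in 1 fit and organ comparisons in 1 fit of all 8 groups, with Benjamini-Hochberg adjustment over all genes tested and a threshold of 0.05. The procedure was tested on simulated data. A pseudocount of 1 understates changes of low genes. Whether replicates were separate cultures is not stated, and p-values then cover only the spread among these samples. The alternatives were a pseudocount of 0.1, no filter, quantile normalization, scaling by read totals, limma voom on rebuilt reads, a replicate block, 1 fit of all 8 groups and leaving out each library.

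The members and gene lists were chosen with earlier results of these data known. All members were named, and of each other list up to 4 called genes with the smallest p, and for likeness the 2 nearest genes with a symbol. MYB genes and others were matched by gene code, of which 32548 of 32833 matched the RefSeq TAIR10.1 annotation. Promoters, coding sequences and overlaps were read from that assembly with Python 3.11.15, and biopython 1.88 aligned coding sequences. No columns were left out.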

Additional observations from a re-analysis of the deposited data

Results flagged for a closer look

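In groups of 4 libraries, 60 pairs of a gene and a group were examined for 1 library far from the others by the share of the range that its gap takes up (Dixon's 95% critical value), and 4 were found, where chance gives about 1 in 20. MYB51 had 20.9 FPKM in Col shoot mock replicate 2, against 7.83 to 8.90 in the other 3 libraries. That library also had the highest summed level of the 11 wounding, touch and defence genes in its group, 410 FPKM where the lowest had 318, and their part in the MYB51 level was not tested. MYB122 had 0.0639 FPKM, from 1 read, in Col shoot mock replicate 3 and 0 in the other 3. With the others at 0 this rule flags any single read, so the flag carries no information on spread. SUR1 had 59.6 FPKM in ahp4 root mock replicate 2 and 79.2 to 79.8 in the other 3. IGMT1 had 9.89 FPKM in Col shoot mock replicate 3 and 5.86 to 6.48 in the other 3.

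The BA response of CYP81F2 differed between roots and shoots of Col by 1.36 ± 0.35 on the log2 scale (limma adjusted p = 0.0124).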

How the results depend on the processing

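No result changed its sign past the threshold under the alternatives run, and 237 counts of called members stayed within 1.5 times the reported one, while 3 did not. Without Col shoot mock replicate 2 the organ difference of the BA response had 2 members called in place of 1, the added one being MYB51. In 1 fit of all 8 groups the average over both genotypes gave 3 members in roots in place of 5 and 1 in shoots in place of 0. Leaving out 1 library in turn gave 2 to 4 called members for BA in Col roots, 2 to 3 in ahp4 roots, 8 to 9 between organs, 1 to 2 for the organ difference, 4 to 5 for the average in roots, and 0 for shoots and all genotype comparisons. For single genes 30 values lost and 6 gained a call, and the cause was not tested. Of the 30, 7 were AHP4 in BA shoots, where p could not fall under 0.05 once a library was left out. The exact permutation p there was 0.0667 to 0.1, the smallest that the remaining libraries can give. It cannot show whether that call depends on 1 library, and the log2 difference stayed between -1.12 and -0.84. In mock roots the exact permutation p for AHP4 was 0.0571 without any 1 of the 4 ahp4 libraries.

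With the replicate block limma called 3 members in Col roots, 3 in ahp4 roots, 8 between organs, 1 for the organ difference and 5 for the average in roots, and 0 in the others, each as without it. Of 43 same-numbered pairs 15 had a correlation of deviations over 0.1 (range -0.122 to 0.346), so the criterion of every pair over 0.1 was not met. Of the 43, 21 correlated best with their own number, a hint from the data and not from the design. Of 30 list genes called in ahp4 roots, 23 kept and 7 lost their call without ahp4 root mock replicate 1, an alternative chosen after seeing the data.

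Over all genes, BA in shoots called 1487 genes in Col and 716 in ahp4, and 2319 and 1287 in 1 fit of all 8 groups. The organ difference called 2411 genes, and 1562 by voom. Between genotypes in mock roots 17 genes were called, 7 by voom and 26 after quantile normalization. Depth limits MYB122 in shoots, with 15 reads over 14 libraries, and AHP4, with 4 or 5 reads in each ahp4 mock root library.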

Other observations

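In 6 of the 8 groups 1 library held the lowest or the highest level of all 5 core enzyme genes. In Col root mock all 5 were lowest in replicate 1 and highest in replicate 3. All 5 were lowest in replicate 2 of ahp4 root mock, in replicate 4 of Col shoot mock and in replicate 3 of ahp4 shoot BA, and all 5 were highest in replicate 2 of ahp4 root BA and of ahp4 shoot mock. In Col root BA and Col shoot BA no library was lowest or highest in all 5, and the lowest levels fell in 2 and 3 libraries. CYP83B1 ranged from 232 to 461 FPKM among the 4 Col root mock libraries. These are values within groups, and no test was made.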
